A study of Capra hircus with 12 samples.

Results

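Of the 20486 genes listed for embryonic skin of the cashmere goat, 31 were at least 3 times higher in every embryo at embryonic day 65 (E65) than in any embryo at E45 or E55. They were selected on the expression values themselves, in RPKM, the reads of a gene scaled to its length and to the reads of the library. The smallest of the 3 E65 values had to be at least 1 RPKM and at least 3 times the sum of the largest of the 6 earlier values and 0.1. The rise to E65 is therefore a description of these genes, and a test of it would use the values that chose them. The data are RNA-seq libraries of polyadenylated RNA from skin of 9 unrelated embryos of the Inner Mongolia cashmere goat. Each stage has 3 embryos, and every embryo has a library of its own. Each sample was a piece of about 1 square centimetre of mid flank skin, so all of its cell types were measured together. Fewer cells of a type and less RNA per cell cannot be told apart in such samples.

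Hair follicles form where signals pass between the surface epithelium and the dermis beneath it. The epithelium first thickens into placodes, a dermal condensate gathers under each, and the placode then grows down into the dermis. In this breed the primary follicles give the coarse guard hair and the secondary follicles the cashmere undercoat, and primary follicles are laid down before secondary ones. The epidermis stratifies during embryonic life as well, when its upper layers start to make their own keratins and barrier proteins. Genes that come on between E55 and E65 can belong to any of these tissues, or to vessels, nerves and immune cells of the skin.

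The genes are known here by the identifiers of the deposited table. None of the 20486 was paired with a gene symbol here (0 matches in the NCBI RefSeq gene table of the ARS1.2 goat assembly). This does not show that the genes lack symbols, and the study names genes by symbol. The roles of the 31 genes, their sequences and the marker genes of skin cell types were therefore not analysed here. Most of them carried 1 of 2 prefixes, with 17 of the 31 beginning with GOAT_ENSP (54.8%, against 39.2% of all genes) and 12 with GOAT_ENSBTAP (38.7%, against 42.5%). The remaining 2 began with goat_GLEAN (6.45%, against 18.3%). The shares of all genes include genes under the level that the rule required at E65. The genes are numbered below from 1 to 31 by the ratio of the smallest E65 value to the largest earlier value plus 0.1, and member 1 has the largest ratio. The table gives the chromosome of each gene without its start and end.

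Member 1, listed as goat_GLEAN_10016060_gene on chromosome 13, had 0, 0.05 and 0.1 RPKM in the E45 embryos, 0, 0.06 and 0.15 RPKM in the E55 embryos and 7.76, 10.38 and 6.91 RPKM in the E65 embryos. Its smallest E65 value was 27.6 times the largest earlier value plus 0.1. Member 2, listed as GOAT_ENSBTAP00000006711_gene on chromosome 1, reached a higher level, with 24.71, 23.42 and 18.99 RPKM at E65. It had 0.38, 0.61 and 0.17 RPKM at E45 and 0.49, 0.31 and 0.3 RPKM at E55, a ratio of 26.7. Both genes were thus measured at a trace in the 6 earlier embryos, with no order between E45 and E55. Member 3, on chromosome 11, was of the same kind. Its values were 0.31, 0.08 and 0 RPKM at E45, 0.25, 0.43 and 0.02 RPKM at E55 and 13.75, 19.06 and 12.66 RPKM at E65, and its ratio was 23.9. A gap followed, since the ratio of member 4 was 10.6 and the median over the 31 genes was 4.26.

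**Figure D1:**
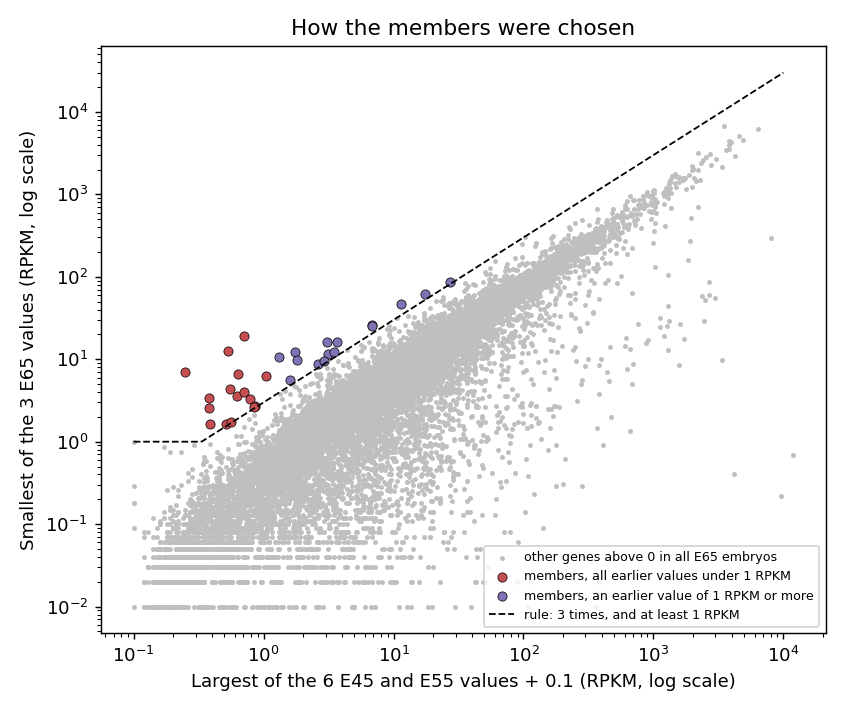
Each point is a gene, with the largest of its 6 E45 and E55 values plus 0.1 on the x axis and the smallest of its 3 E65 values on the y axis, both in RPKM on log scales; the dashed line is the rule. The 31 members lie on or above the line, 16 of them with all earlier values under 1 RPKM (red) and 15 with an earlier value of 1 RPKM or more (purple).

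The name "switched on" fitted only part of the 31 genes. In 16 of them (51.6%) all 6 earlier values were under 1 RPKM, the level that the rule required of each E65 embryo. Their largest earlier values ran from 0.15 to 0.94 RPKM, with a median of 0.49, and their mean E65 values from 1.72 to 22.4 RPKM, with a median of 4.82. In the other 15 genes (48.4%) at least 1 earlier embryo had 1 RPKM or more. Their largest earlier values ran from 1.22 to 27.2 RPKM, with a median of 3.05, and their mean E65 values from 7.43 to 92.6 RPKM, with a median of 19.3. These 15 genes were expressed before E65 in at least some embryos and increased. Only 2 of the 31 genes were listed at 0 in all 3 E45 embryos, and 22 were listed above 0 in all 6 earlier embryos. Read counts and gene lengths were not used here, so the number of reads behind a value near 0 was not computed.

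The genes that were already expressed included the most abundant ones. Member 28, on chromosome 21, had the highest mean E65 value, with 91.56, 99.21 and 87 RPKM. It had 4.55, 11.53 and 3.3 RPKM at E45, and 27.19, 5.52 and 3.82 RPKM at E55. The highest earlier value came from E55-1, and the other 5 earlier embryos did not exceed 11.53 RPKM. Member 22, on chromosome 11, was at an even level before E65. It had 14.06, 13.1 and 14.31 RPKM at E45, 14.68, 14.35 and 17.34 RPKM at E55 and 62.34, 63.63 and 70.15 RPKM at E65. The 6 earlier embryos lay between 13.1 and 17.34 RPKM, below all E65 embryos. Member 18, on chromosome 26, had 1.45, 2.82 and 2.11 RPKM at E45, then 11.26, 5.25 and 2.76 RPKM at E55, and 46.94, 50.9 and 47.79 RPKM at E65. For this gene E55-1 and E55-2 lay above all E45 embryos, and E55-3 lay among them.

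Together the 31 genes made up a small part of the RNA. Their RPKM values summed to 36.6, 53.8 and 44.2 in the E45 embryos, to 89.0, 54.9 and 44.3 in the E55 embryos and to 538.1, 635.5 and 455.1 in the E65 embryos. As a share of all RPKM of a sample this was 0.00680% to 0.00961% at E45, 0.00790% to 0.0159% at E55 and 0.0784% to 0.106% at E65. The sum in E55-1 was higher than in the other 5 earlier embryos, and E65-3 had the lowest sum at E65. The median over the members was 0.31, 0.19 and 0.24 RPKM in the E45 embryos, 0.74, 0.6 and 0.24 RPKM in the E55 embryos and 11.9, 12.7 and 8.72 RPKM in the E65 embryos. By this median E55-3 lay within the range of the E45 embryos, while E55-1 and E55-2 lay above it.

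**Figure D2:**
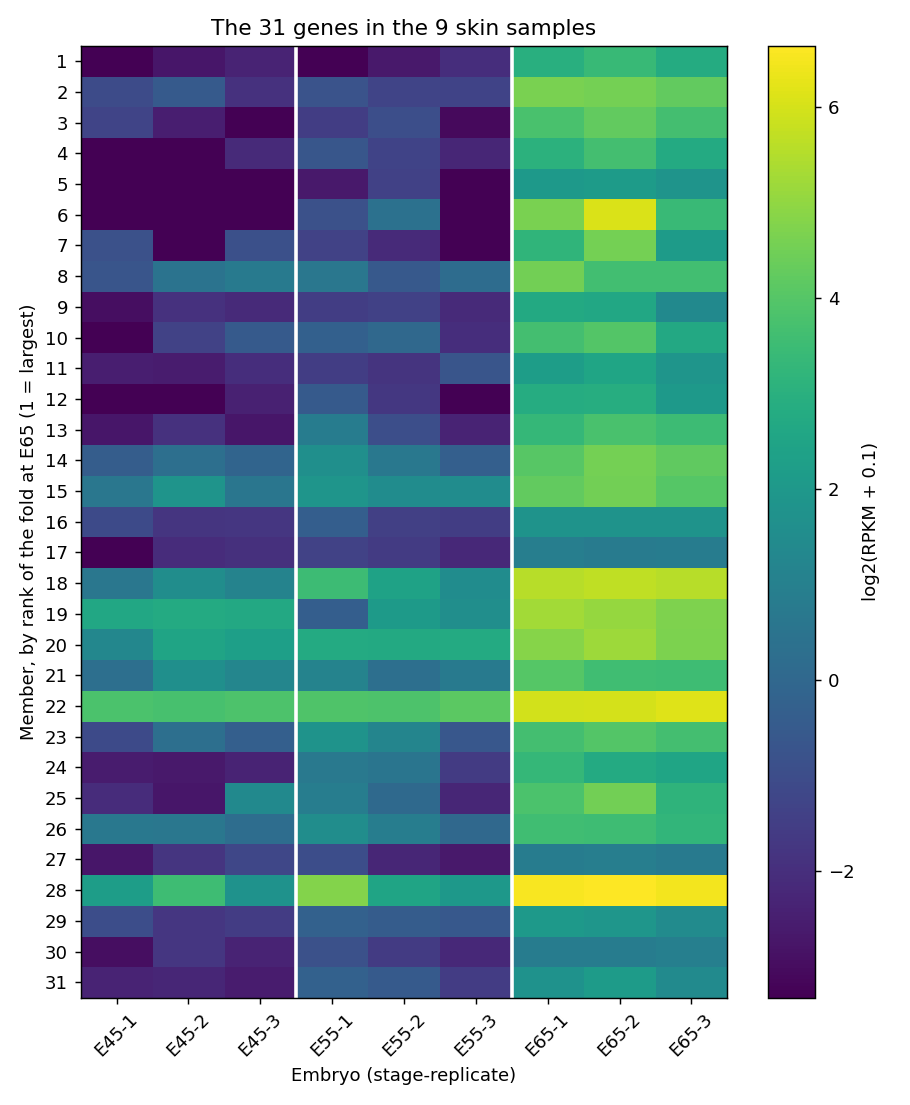
Colour shows log2(RPKM + 0.1) of each of the 31 members (rows, by rank of the ratio) in each of the 9 embryos (columns, with white lines between the stages). All members are brightest at E65, and rows such as 18, 22 and 28 are already well above the darkest level at E45 and E55.

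The fold limit of the rule was not a gap in the data. The member closest to the fold limit was member 31, on chromosome 16, with a ratio of 3.06 (0.75 RPKM as the largest earlier value against 2.6 RPKM as the smallest at E65). The first gene outside, on chromosome 15, had a ratio of 2.97, with 10.57 RPKM in E55-1 against 31.64 RPKM as the smallest at E65, and 19 genes had a ratio from 2.5 to under 3 with at least 1 RPKM in each E65 embryo. At the other limit the smallest E65 value among the members was 1.63 RPKM, and 5 genes passed the fold but not the level. One of these, on chromosome 29, was listed at 0 RPKM in all 6 earlier embryos and had 7.46 and 9.85 RPKM in E65-1 and E65-2, but 0.98 RPKM in E65-3. It was the closest to the level limit, so no gene past the fold had a smallest E65 value between 0.98 and 1.63 RPKM.

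Single embryos decided how many genes met the rule, and E55-1 more than any other. Without E55-1 the rule gave 90 genes, so that 34.4% of the genes chosen on the other 8 embryos also met it in E55-1. In the 59 genes that this embryo kept out, its value was a median of 2.17 times the largest of the other 5 earlier values and a median of 53.0% of the smallest E65 value, and it exceeded the smallest E65 value in 2 of them. Without E65-3 the rule gave 57 genes, of which 54.4% also met it in E65-3. In the 26 genes that E65-3 kept out, its value was a median of 42.5% of the smaller of the other 2 E65 values. It was under 1 RPKM in 7 of them, and at or under the largest earlier value in 3. With any of the other 7 embryos left out the rule gave 31 to 35 genes, and 88.6% to 100% of these held in the embryo left out. The same rule with E45 as the high stage gave 20 genes, and with E55 as the high stage 4 genes.

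**Figure D3:**
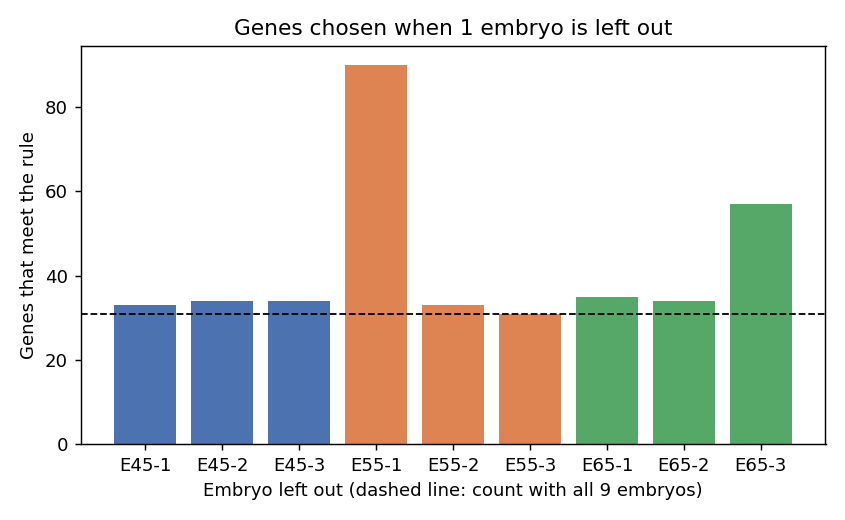
Bars give the number of genes that met the rule when the embryo on the x axis was left out, coloured by stage, and the dashed line marks the 31 genes found with all 9 embryos. The bars for E55-1 (90 genes) and E65-3 (57 genes) stand above the rest.

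Differential expression was tested on log2(RPKM + 0.1) with limma in 1 fit of the 9 samples, with Benjamini-Hochberg adjustment over 16604 genes. Calls required an adjusted p below 0.05 together with a change of 1 or more on the log2 scale, in either direction. All 31 members were tested. The members' choice used the contrasts of E65 with the earlier stages, so their calls there are given as a description and say nothing further about them. In E65 vs. E55 all 31 were called higher, beside 2.11% of all tested genes, and in E65 vs. E45 all 31 were called higher, beside 4.90% of all tested genes. The 2 contrasts share the E65 embryos. The log2 fold change of member 1 was 5.71 in E65 vs. E55 (standard error 0.44) and 5.85 in E65 vs. E45 (standard error 0.44). Of member 22 it was 2.08 and 2.23 (standard error 0.12 in both). On this scale the change of genes with low RPKM is understated.

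The rule treats E45 and E55 values alike, so it does not set the direction between these stages. It does limit the size of a change, since a gene whose E55 values came near its E65 values could not be a member. The tested genes as a whole have no such limit, so the backgrounds below are not from genes chosen alike. In E55 vs. E45 no member was called higher (0 of 31, beside 0.397% of all tested genes) or lower (0, beside 0.494%) in limma. At an unadjusted p under 0.05 in limma there were 9 higher (beside 5.43% of all tested genes) and 1 lower (beside 13.1%). Both directions together gave 10 members, but 6 without E55-1 and 17 with quantile normalization. As a description, the log2 fold change was above 0 in 26 of the 31 genes (83.9%), against 35.5% of all tested genes. That background depended on the scaling of the samples, with 28 of the 31 members against 55.7% of all tested genes above 0 with median scaling and 28 against 53.6% with quantile normalization. Members 1 and 5 had a mean under 0.1 RPKM over the 6 earlier embryos and so passed the filter on low values only through E65. Among genes with an earlier mean of at least 0.1 RPKM, it was above 0, without rescaling, in 24 of 29 members (82.8%) and in 35.4% of the 16472 tested. The median over the members was 0.71, against -0.12 over all tested genes (0.83 against 0.05 with median scaling and 1.06 against 0.03 with quantile normalization), and the members ran from -1.57 to 2.38. The size of the median depended on the pseudocount, with 0.23 when 1 RPKM was added and 1.13 when 0.01 RPKM was added. For the 16 genes under 1 RPKM before E65 the median was 0.76, and for the other 15 it was 0.71. The 3 E55 values lay wholly above the 3 E45 values in 6 of the 31 genes (beside 7.12% of all tested genes) and wholly below them in 1 gene (beside 14.1%). Both shares of all tested genes are without rescaling. The 6 genes include member 22, by 14.35 against 14.31 RPKM. The median moved with single embryos, and was lowest without E45-1, at 0.45, and highest without E55-3, at 1.11. Without E55-1 it was 0.51, and 23 of the 31 genes were above 0.

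Member 24, on chromosome 15, had the largest E55 vs. E45 log2 fold change among the members. Its values were 0.07, 0.06 and 0.1 RPKM at E45, 1.51, 1.35 and 0.23 RPKM at E55 and 9.86, 6.75 and 5.67 RPKM at E65. All E55 embryos were above all E45 embryos, with E55-3 close to them, and the log2 fold change of 2.38 (standard error 0.57) had an adjusted p of 0.0759 in limma. Over all alternative settings tried the adjusted p ran from 0.0182 to 0.221. It passed the threshold without E55-3 (0.0182) and with quantile normalization (0.0416). Member 31 had 0.1, 0.11 and 0.07 RPKM at E45, 0.75, 0.6 and 0.24 RPKM at E55 and 3.29, 4.27 and 2.6 RPKM at E65. Its values were in stage order with no overlap, but its E55 vs. E45 log2 fold change of 1.61 (standard error 0.41) had an adjusted p of 0.0858 in limma, which ran from 0.0415 (quantile normalization) to 0.241 over the alternative settings. Member 29, on chromosome 5, had 0.41, 0.2 and 0.24 RPKM at E45 and 0.76, 0.65 and 0.57 RPKM at E55. Its adjusted p in limma was 0.139, and 0.0403 without E45-1.

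Of the 5 members with a log2 fold change below 0, member 19 had the lowest value. Member 19, on chromosome 6, had 6.09, 6.69 and 6.26 RPKM at E45, 0.68, 4.15 and 2.95 RPKM at E55 and 38.33, 33.45 and 25.72 RPKM at E65. All E55 embryos were below all E45 embryos and E55-1 was the lowest, so its values dipped before the increase. The log2 fold change in E55 vs. E45 was -1.57 (standard error 0.52), with an adjusted p of 0.152 in limma, which ran from 0.0716 to 0.317 over the other settings.

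**Figure D4:**
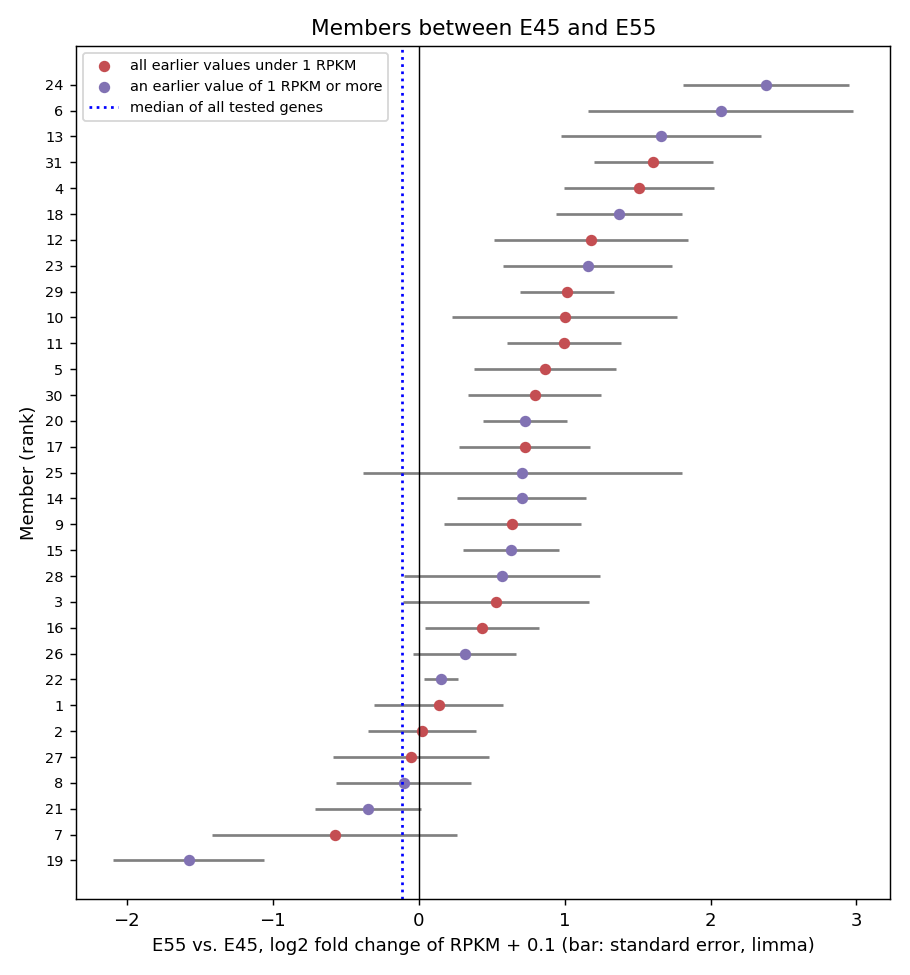
Points are the E55 vs. E45 log2 fold changes of RPKM + 0.1 for the 31 members, with bars for the standard error from limma, and the dotted line is the median of all tested genes without rescaling (-0.12, but 0.05 with median scaling and 0.03 with quantile normalization). Most points lie to the right of 0, member 24 farthest, and member 19 stands apart on the left at -1.57.

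The highest of the 6 earlier values came from E55-1 in 16 of the 31 genes (51.6%), although this embryo held the highest earlier value in only 17.2% of all tested genes. It came from E55-2 in 5 genes, from E55-3 in 4, from E45-2 in 3, from E45-3 in 2 and from E45-1 in 1. Any E55 embryo was highest in 25 of the 31 genes, against 33.6% of all tested genes. These shares of all tested genes are without rescaling of the samples, on which the E55 vs. E45 background above depended. Where E55-1 was highest, it was 1.05 to 3.98 times the next earlier value, with a median of 1.69. Member 13, on chromosome 7, was at the upper end, with 1.71 RPKM in E55-1, 0.43 and 0.1 RPKM in the other E55 embryos, 0.05, 0.17 and 0.05 RPKM at E45 and 9.7, 13.55 and 11.17 RPKM at E65.

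At E65 the members were as a group highest in E65-2 and lowest in E65-3. The highest value was in E65-2 for 19 of the 31 genes (61.3%), and the lowest in E65-3 for 23 (74.2%). Among the 11970 genes with at least 1 RPKM in all 3 E65 embryos, without rescaling, the highest value was in E65-2 for 27.2% and the lowest in E65-3 for 27.0%. The order E65-2, E65-1, E65-3 was found in 16 members (51.6%) and in 11.3% of the 11970 genes. The ratio of E65-3 to E65-2 had a median of 0.778 over the members and of 1.04 over the 11970 genes. Of the 90 genes that met the rule without E55-1, 50 (55.6%) were lowest in E65-3. With 1 library per embryo, a difference between embryos and one between libraries cannot be told apart.

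The spread among the E65 embryos differed widely between members. The highest E65 value was 1.02 to 6.38 times the lowest, with a median of 1.45 over the members and of 1.29 over the 11970 genes. It was above 2 in 5 members (16.1%) and in 5.57% of the 11970 genes. Member 6, on chromosome 19, was widest, with 24.91, 67.1 and 10.51 RPKM in E65-1, E65-2 and E65-3. Before E65 it was listed at 0 in all E45 embryos and had 0.46, 1.22 and 0 RPKM at E55. Member 7, on chromosome 7, followed with 8.96, 23.67 and 4.36 RPKM at E65, after 0.45, 0 and 0.44 RPKM at E45 and 0.29, 0.13 and 0 RPKM at E55. Both genes had the same order of the E65 embryos and nearly the same proportions between them. Member 25, also on chromosome 19, had 13.9, 22.8 and 8.72 RPKM at E65 in the same order. It was uneven earlier as well, with 0.14, 0.05 and 2.52 RPKM at E45 and 1.77, 0.95 and 0.11 RPKM at E55.

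Members 9 and 10 were the other 2 with a spread above 2. Member 9, on chromosome 3, had 6.46, 6.1 and 2.53 RPKM at E65, and member 10, on chromosome 1, had 12.45, 15.46 and 6.27 RPKM. In these genes E65-3 alone was low. At the narrow end, 7 members had a spread under 1.2. Member 16, on chromosome 23, was narrowest, with 3.38, 3.32 and 3.39 RPKM at E65, after 0.37, 0.19 and 0.2 RPKM at E45 and 0.68, 0.27 and 0.25 RPKM at E55. Member 30, on chromosome 2, had 1.73, 1.72 and 1.84 RPKM at E65 and member 17, on chromosome 27, had 1.8, 1.65 and 1.7 RPKM, so steady values were found at low levels too.

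**Figure D5:**
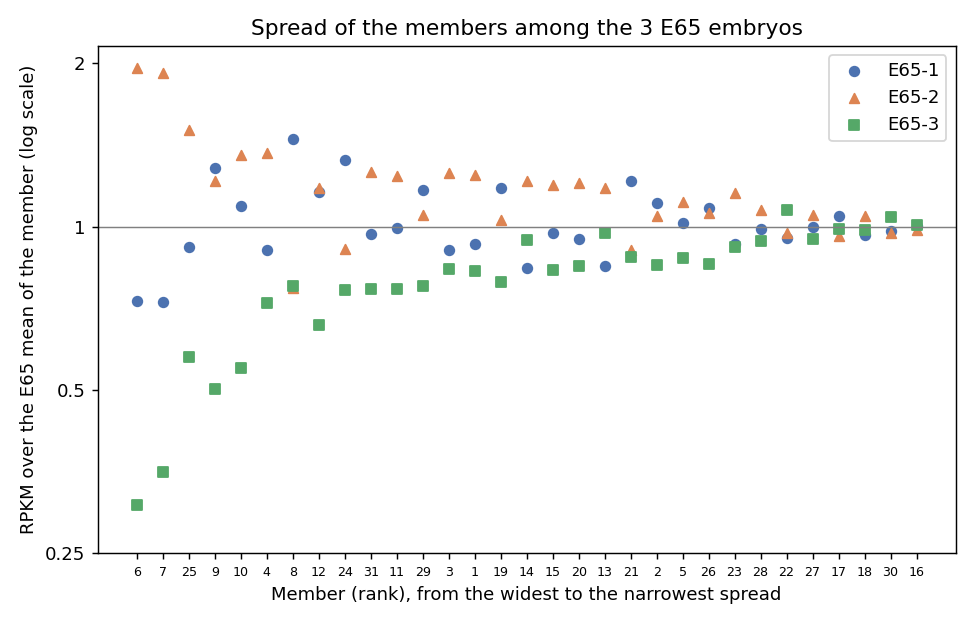
Each column is a member, ordered from the widest to the narrowest spread, and points give its RPKM in E65-1, E65-2 and E65-3 over its E65 mean on a log scale. The green squares (E65-3) lie lowest in 23 of the 31 columns, and the columns of members 6 and 7 at the left show the widest spread.

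The members were spread over 19 of the 30 chromosomes listed. Chromosome 11 held 4 of them (12.9%, against 4.46% of all genes), members 3, 21, 22 and 23. Chromosomes 1 and 19 held 3 each (9.68%, against 4.22% and 5.55% of all genes), and 5 more chromosomes held 2 each. Here too the shares of all genes include genes under the level required at E65. The 4 genes of chromosome 11 did not share a pattern before E65. Member 3 was at a trace, member 21 had 1.14, 3.05 and 2.26 RPKM at E45 and 2.09, 1.13 and 1.56 RPKM at E55, member 22 was at 13.1 RPKM or more, and member 23 had 0.37, 1.14 and 0.7 RPKM at E45 against 3.38, 2.19 and 0.55 RPKM at E55. Whether genes of a chromosome lie next to each other was not analysed here.

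One pair of members shared an identifier apart from a suffix. Members 4 and 5, both on chromosome 18, carry the same number, and member 5 has -D2 added. Member 4 had 0, 0 and 0.13 RPKM at E45, 0.53, 0.3 and 0.11 RPKM at E55 and 8.4, 12.67 and 6.69 RPKM at E65. Member 5 was listed at 0 in all E45 embryos and had 0.06, 0.28 and 0 RPKM at E55 and 3.98, 4.35 and 3.43 RPKM at E65. Both had the E65 embryos in the same order. The study counted only uniquely placed reads. If the 2 are near-identical copies, their levels are therefore uncertain, and they may not be independent members. Member 12, on chromosome 1, also carries -D2, and the table lists no other gene with its number. It had 0, 0 and 0.09 RPKM at E45, 0.61, 0.21 and 0 RPKM at E55 and 7.08, 7.2 and 4.01 RPKM at E65.

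Of the members not yet described, member 8, on chromosome 19, was the clearest case in which E65-1 was highest, with 22.83, 12.16 and 12.24 RPKM at E65. It had 0.51, 1.3 and 1.63 RPKM at E45 and 1.43, 0.58 and 1.05 RPKM at E55, without a difference between these stages beyond their spread. Member 11, on chromosome 22, was in stage order with no overlap, from 0.08, 0.07 and 0.15 RPKM at E45 to 0.25, 0.18 and 0.52 RPKM at E55 and 4.59, 5.72 and 3.54 RPKM at E65. Member 20, on chromosome 21, was in stage order at a higher level, from 2.34, 5.57 and 4.78 RPKM to 6.68, 6.53 and 6.72 RPKM and then 28.17, 35.8 and 25.17 RPKM. In this gene the E55 embryos were close to each other. Neither passed the test in E55 vs. E45, with an adjusted p of 0.217 for member 11 and 0.222 for member 20 in limma.

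Members 14 and 15, on chromosomes 20 and 4, had 0.67 RPKM or more in all 6 earlier embryos. Member 14 had 0.67, 1.16 and 0.82 RPKM at E45, 2.98, 1.47 and 0.7 RPKM at E55 and 16.26, 23.52 and 18.29 RPKM at E65. Member 15 had 1.46, 3.42 and 1.39 RPKM at E45, 3.58, 2.79 and 2.75 RPKM at E55 and 18.72, 23.01 and 16.05 RPKM at E65. E45 and E55 overlapped in both. Member 26, on chromosome 26, had 1.48, 1.43 and 1.09 RPKM at E45, 2.81, 1.75 and 0.93 RPKM at E55 and 11.92, 11.67 and 9.41 RPKM at E65, and E55-3 was the lowest of the earlier embryos. Member 27, on chromosome 16, had the lowest smallest value at E65, with 1.72, 1.81 and 1.63 RPKM, and 0.05, 0.19 and 0.34 RPKM at E45 against 0.41, 0.11 and 0.06 RPKM at E55.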

How the data were processed

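Per the labels and the methods of the study, the authors used the FASTX-Toolkit to filter the reads and TopHat to place them on the goat genome. Reads with several locations were discarded and the rest counted per annotated gene. The genome build is not given in the sources used here. The deposited values are RPKM with 2 decimals, named FPKM in the study's methods, and each embryo has a column. They summed to 537791 (E45-1) to 602169 (E65-2) per sample. Read counts were not recovered: with the study's totals of uniquely aligned reads, a gene length giving whole reads in all 9 samples (tolerance 0.1) was found for 5.96% of 1761 low genes, so intervals for counting error are not given.

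Genes with a mean of at least 0.1 RPKM were fitted as log2(RPKM + 0.1) with limma 3.58.1 in R 4.3.3 (stage as the only factor, mean-variance trend). The study used edgeR on counts, which RPKM do not allow. The code was tested on simulated data. Counts and plots were made in Python 3.11.15 with pandas 2.3.3, numpy 2.4.6 and matplotlib 3.10.9.

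The members, the tests and the rule for named genes were chosen with earlier results of these data known. Without symbols, that rule gives identifiers for the 2 members with the largest ratio, and describes by rank the most abundant, the widest, the narrowest and those next to the limits. The further members were described after their values were seen. Lists of marker genes and the pooled small RNA libraries were not used.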

Additional observations from a re-analysis of the deposited data

How the results depend on the processing

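The 31 genes became 94 with a fold of 2, 14 with a fold of 5 and 16 with 1 RPKM added to the earlier value in place of 0.1. All 31 were among the 94, and the 14 and the 16 were all among the 31. A smaller fold admits more genes by construction. With 1 embryo left out the count ran from 31 to 90, with 90 without E55-1 and 57 without E65-3. Of the 32 genes found with median scaling 30 were members, and of the 36 with quantile normalization 28. In E55 vs. E45, 2 members were called with quantile normalization (members 24 and 31, both higher), and 0 or 1 with an embryo left out (member 29 without E45-1, member 24 without E55-3). The cause was not tested. Under the 17 other settings no member was called. The members called higher at E65 than at E55 or at E45 stayed between 23 and 31 under all settings. The median E55 vs. E45 log2 fold change of the members was above 0 under all settings tried, from 0.23 (pseudocount 1) to 1.13 (pseudocount 0.01). The median of all genes moved from -0.12 to 0.05 with median scaling and to 0.03 with quantile normalization, where the median of the members was 0.83 and 1.06. The members on chromosome 11 became 8 of 94 with a fold of 2 and 1 of 14 with a fold of 5. The number of members lowest in E65-3 was 26 with median scaling and 25 with quantile normalization, and E55-1 was the highest earlier embryo in 16 and 21. The counts of members lowest in E65-3, and of members with an E55 vs. E45 log2 fold change above 0, were added after the data had been seen.

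With the replicate number as a block, the numbers of members called were 0 (E55 vs. E45), 30 (E65 vs. E55) and 31 (E65 vs. E45). The labels tie equal numbers to no common source. The correlation of equally numbered samples in their deviations from the stage means ran from -0.30 to 0.41 over 9 pairs. For samples of different stage and number it ran wider, from -0.53 (E45-3 with E55-2) to 0.47 (E45-1 with E55-2). Of the 9 samples, 5 correlated best with a sample of their own number.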
